A study of Rattus norvegicus with 6 samples.

Results

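The genes described here are the Wnt ligands, their receptors and their secreted antagonists in cultured rat hippocampal neurons. They were taken by gene symbol from the array's annotation: the Wnt genes, the Frizzled (Fzd) receptor genes, the co-receptor genes Lrp5 and Lrp6, the Dishevelled genes Dvl1 to Dvl3, and the antagonist families Sfrp and Dkk. Of the 18166 genes measured, 41 were members: 19 Wnt ligands, 9 Frizzled receptors, 2 co-receptors, 3 Dishevelled genes, 4 Sfrp genes and 4 Dkk genes. The remaining Frizzled gene of the RefSeq table, Fzd3, was not analysed here. Each member was represented by 1 probe set, a group of short array probes for the same transcript. RNA came from hippocampal neurons of rat embryos at day 18, cultured with 10 µM 5-fluorodeoxyuridine (FUDR), which blocks DNA synthesis in dividing cells such as glia. Every culture received adeno-associated virus (AAV) at 4 days in vitro, at a titre of 1800000 infectious units per ml, and was harvested for RNA at 14 days. In the control shRNA group the virus carried a control short hairpin RNA (3 arrays), and in the Ncoa3 shRNA group it carried one against Ncoa3 (3 arrays), which encodes a transcriptional coactivator of nuclear receptors. Each of 3 numbered experiments gave 1 array per group, and the comparison asks how expression differs once Ncoa3 is silenced. No array of uninfected neurons was used here.

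Wnt proteins are lipid-modified signals that bind a Frizzled receptor together with Lrp5 or Lrp6. Dishevelled then carries the signal inside the cell, where the kinase complex that marks beta-catenin for destruction is held back and beta-catenin acts with TCF and LEF factors on target genes. Other Wnts, such as Wnt5a, act mainly through routes that do not need beta-catenin. In the hippocampus Wnt signals are known for their part in patterning, dendrite growth and synapse formation. Sfrp proteins bind Wnts outside the cell, and Dkk1, Dkk2 and Dkk4 bind the Lrp co-receptors.

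The cultures expressed the markers of neurons. The mean signal of 8 neuronal markers lay between 12.37 and 12.48 on the 6 arrays, on a log2 scale. That of 7 astrocyte markers lay between 9.37 and 9.90 and that of 8 microglial markers between 6.26 and 6.61. In bulk RNA fewer cells of a type and less RNA per cell cannot be told apart.

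Ncoa3 itself (probe set 17769041) stood at 8.79, 8.88 and 8.37 on the control arrays of experiments 1 to 3 and at 7.43, 7.43 and 7.39 on the Ncoa3 shRNA arrays. It was 1.96-fold lower after quantile normalization, which gives all 6 arrays the same distribution of signal (log2 change -0.97 ± 0.142, SE, n = 3 in each group; adjusted p in limma was 0.00747, and 0.130 without experiment 1 or 0.122 without experiment 2). The deposited signals of the Ncoa3 shRNA arrays were lower as a whole, with a median difference over all genes of -0.25. A rise or fall is therefore stated relative to the other genes, from the quantile-normalized signals, and the signals per array are given as deposited. All adjusted p-values are limma's, over all 18166 genes, with 0.05 as the threshold.

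Many deposited values were exactly the same on several arrays of 1 group. Of the 41 members, 9 had a single value on all 3 arrays of each group, 6 only on the control arrays, 7 only on the Ncoa3 shRNA arrays, and 19 varied in both groups. Over the whole array of 36685 probe sets, 8680 to 13979 had identical values when arrays were paired within a group, and 0 to 2 when they were paired across groups. Whatever step made the values alike acted on each group separately, so that step and the shRNA cannot be told apart. For these 9 (Wnt3, Wnt3a, Wnt10a, Fzd5, Fzd6, Fzd10, Sfrp4, Dkk2 and Dkk4) the spread within a group arose in the normalization alone. Their p-values do not measure variation between cultures. A value could also repeat on 2 of the 3 arrays of a group. Among the members past the test it did so in both groups for Wnt5a, Wnt8a and Dvl3. It did so on the control arrays for Wnt5b, Fzd8 and Wnt10b. Their SEs and p-values rest in part on repeated values. Over all genes 34.9% of those with a single value per group passed the test, against 17.7% of the others. The arrays carry no detection calls. All 41 members had mean signals above 6.46, the 95th percentile of 226 olfactory and vomeronasal receptor genes, which hippocampal neurons are not known to use. With the newer symbols of olfactory receptors added (1343 genes) 33 members lay above that percentile, and at the 99th percentile of the 226 genes 19 did. Of those 226 receptor genes 40.7% passed the test, so calls were common among dim genes.

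Of the 41 members 9 passed the test, which is 22.0%, near the 19.5% of all genes. Fzd6, Fzd8, Wnt5a, Wnt10b, Dkk2 and Wnt8a rose relative to other genes (10.5% of all genes rose), and Fzd10, Wnt5b and Dvl3 fell (9.04% of all genes). Wnt5a, Wnt10b and Fzd8 rose 1.26-fold to 1.38-fold, and the falls were 1.17-fold to 1.29-fold. On all 3 control arrays the normalized signals of Fzd6, Dkk2 and Wnt8a were below the 95th percentile of the olfactory and vomeronasal receptor genes on that array, so only a bound can be given. Against that percentile Fzd6 was at least 1.21-fold higher and Dkk2 at least 1.09-fold, and for Wnt8a no fold can be given. These bounds hold for the 226 genes only. With the newer symbols added, Fzd6, Dkk2, Wnt8a and Wnt10b were not among the 33 members above the percentile, and no bound is given against it. The measured signals of Fzd6 were 1.79-fold apart, the only member past 1.5-fold (2.22% of all genes passed at that size). With the experiment as a block in the fit, which compares the arrays within each experiment, 16 members passed, or 39.0% against 39.3% of all genes. These were 12 higher and 4 lower members, where 20.8% of all genes were higher and 18.6% lower. Of the 16, 5 had a single deposited value per group, 1 on the control arrays only and 4 on the Ncoa3 shRNA arrays only. With each array centred on its median in place of quantile normalization, 9 members passed (21.5% of all genes). None of the 9 calls held without both arrays of experiment 1 or of experiment 2: adjusted p was then 0.0610 and 0.0678 for Fzd6 and 0.220 to 0.413 for the other 8. With a single array of experiment 1 or 2 left out, only Fzd6 of the 9 passed. Without the control array of experiment 3, 6 of the 9 passed. Without experiment 3, 26 members passed, where 46.0% of all genes did: 18 were higher (24.4% of all genes) and 8 lower (21.6%). Exact matches were more frequent between experiments 1 and 2 than with experiment 3. Between experiments 1 and 2 the values matched in both groups for 19 members, among them 6 of the 9 called, against 11 members between experiments 1 and 3 and 10 between 2 and 3. Over all probe sets 13979 control and 13476 Ncoa3 shRNA values matched between experiments 1 and 2, and 8680 to 9297 in the other pairs. Their part in the calls gained without experiment 3 and lost without experiment 1 or 2 was not tested.

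**Figure D1:**
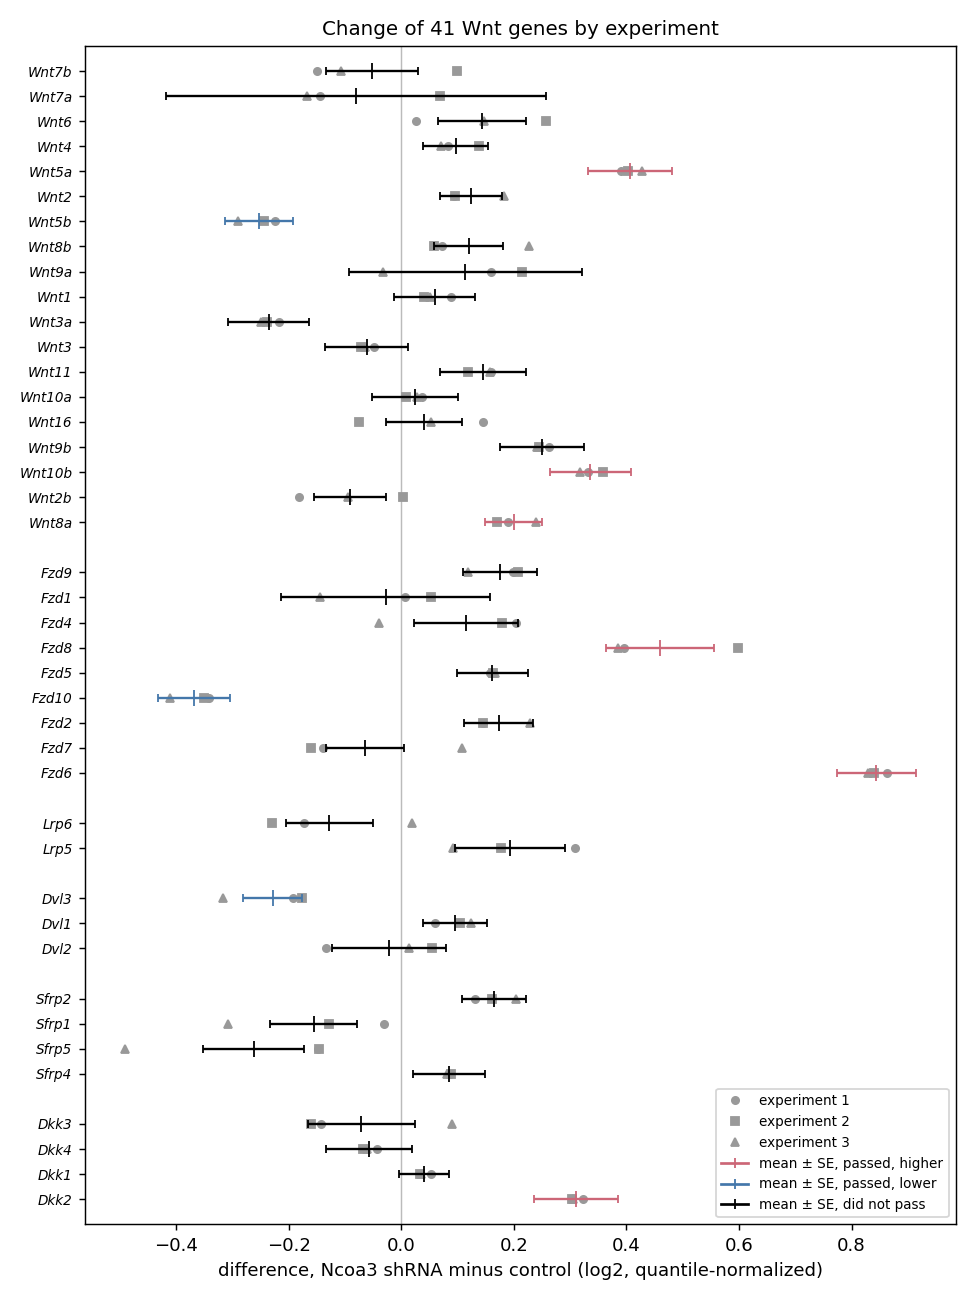
Difference in log2 signal, Ncoa3 shRNA minus control after quantile normalization, for each of the 41 genes, grouped by role. Grey symbols are the 3 experiments, and ticks with bars are the mean and its SE from limma's fit. Fzd6 lies farthest to the right at 0.84 and Fzd10 farthest to the left at -0.37.

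In the deposited values 28 members passed, 3 higher and 25 lower (68.3%, against 47.2% of all genes, of which 3.97% were higher and 43.3% lower). The median difference over members was -0.20 as deposited, where that over all genes was -0.25, and 0.09 after quantile normalization, where that over all genes was 0.01. Of the 41 members 20 stood above 0 after quantile normalization and below 0 as deposited, and Wnt8a was the only called member among them. Fzd6, Fzd8, Wnt5a, Wnt10b and Dkk2 were higher, and Fzd10, Wnt5b and Dvl3 lower, under both scalings. After quantile normalization the 3 arrays of a group did not overlap with those of the other for 23 members, where 40.5% of all genes did not overlap. Of these 17 were higher with Ncoa3 shRNA (21.5% of all genes) and 6 lower (19.0%). As deposited 5 were higher without overlap (5.36% of all genes), namely Fzd6, Fzd8, Wnt5a, Wnt10b and Dkk2, and 30 lower (55.6%).

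**Figure D2:**
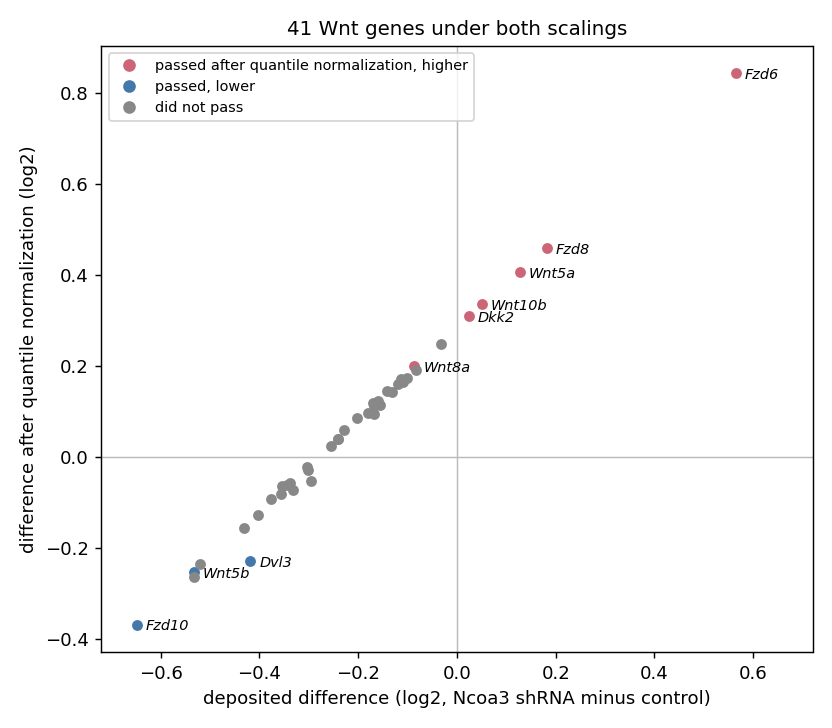
Difference between the groups in the deposited values (horizontal) against that after quantile normalization (vertical), both in log2 units, for the 41 genes. The points lie along a line that crosses the vertical axis above 0, so that a gene with no deposited difference appears higher after normalization. Dkk2 lies at 0.02 and 0.31, and Wnt8a at -0.09 and 0.20.

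Among the 19 Wnt ligands 3 rose (10.5% of all genes), 1 fell (9.04%) and 15 did not pass. Their median change was 0.10, and that over all genes 0.01. Wnt5a (probe set 17705906), which guides cell polarity and axon growth, read 8.01, 8.01 and 7.93 on the control arrays and 8.14, 8.14 and 8.05 on the Ncoa3 shRNA arrays. The Ncoa3 shRNA arrays were all above the control arrays. The change of 0.41 ± 0.074 (SE, n = 3) equals 1.33-fold (adjusted p = 0.0151, and 0.00411 with the block). As deposited the difference was 0.13 (adjusted p = 0.0541). Its closest relative Wnt5b (17794339) went the other way, from 7.93, 7.97 and 7.97 to 7.41, 7.43 and 7.44. No array of 1 group reached those of the other, and the change was -0.25 ± 0.060 (SE; adjusted p = 0.0343), lost when only genes above the olfactory range were tested (0.0554). The difference Wnt5a minus Wnt5b within an array does not depend on a shift common to both: it was 0.02 ± 0.063 on control arrays and 0.68 ± 0.065 on Ncoa3 shRNA arrays (SD, n = 3 each). This pair was set side by side after its values were seen, so no test is given.

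Wnt10b and Wnt8a, both ligands of the beta-catenin route, were the other ligands that rose. Wnt10b (17840812) read 6.64, 6.60 and 6.64 on the control arrays and 6.68 on all 3 Ncoa3 shRNA arrays. The groups were thus 0.05 apart as deposited, and relative to other genes the change was 0.34 ± 0.072 (SE; adjusted p = 0.0244). Wnt8a (17722304) read 6.45, 6.45 and 6.64 with control shRNA and 6.34, 6.34 and 6.60 with Ncoa3 shRNA. These groups overlapped, and the change was 0.20 ± 0.050 after quantile normalization (adjusted p = 0.0405) but -0.09 as deposited (0.503). With each array centred on its median, adjusted p for Wnt8a was 0.318.

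Relative to other genes Wnt3a, Wnt9b and Wnt11 did not pass without the block and passed with it. Wnt3a had 1 deposited value per group. Wnt9b and Wnt11 had 1 on all Ncoa3 shRNA arrays and 2 equal control values. With the block the SEs of Wnt3a, Wnt9b and Wnt11 were 0.022, 0.020 and 0.023. Their p-values with the block rest on repeated values and do not measure variation between cultures. Wnt3a and Wnt9b also passed with median-centred arrays. Wnt3a is a strong activator of beta-catenin signalling and is made by the cortical hem, the organiser of the embryonic hippocampus. Wnt3a (17656682) read 7.49 on all control arrays and 6.97 on all Ncoa3 shRNA arrays, a change of -0.24 ± 0.072 (SE; adjusted p = 0.0707, and 0.00702 with the block). Wnt9b (17662236) read 6.86, 6.86 and 6.87 against 6.83 on all 3 Ncoa3 shRNA arrays, and its change was 0.25 ± 0.075 (0.0659, and 0.00540 with the block). Wnt11 (17618555), which acts in cell movements, read 7.20, 7.22 and 7.20 against 7.06 on all 3, and its change was 0.15 ± 0.076 (0.243, and 0.0187 with the block). As deposited Wnt9b and Wnt11 passed as lower, at -0.03 and -0.14 (adjusted p = 0.00186 and 3.65e-05). Both p-values, too, rest on repeated values, and the median over all genes was -0.25 as deposited. With the block they passed as higher, so their direction depended on the scaling.

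The ligand with the highest signal was Wnt7b (17839739), known for its part in dendrite growth of hippocampal neurons. It read 10.37, 10.22 and 10.12 with control shRNA and 9.99, 10.06 and 9.78 with Ncoa3 shRNA. All Ncoa3 shRNA arrays were lower as deposited, by 0.30 on average, while the change relative to other genes was -0.05 ± 0.082 (SE; adjusted p = 0.706). Signals of different probe sets are not compared further, since probes differ in brightness for the same amount of RNA.

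A further 7 ligands did not pass relative to other genes, with or without the block, and were lower past the threshold as deposited. As deposited 43.3% of all genes were lower past it. Wnt3 (17651689) read 7.349 on all control arrays and 7.005 on all Ncoa3 shRNA arrays, and its change relative to other genes was -0.06 ± 0.074 (adjusted p = 0.615). Wnt10a (17860525) went from 7.18 on all arrays to 6.93 on all arrays, a change of 0.02 ± 0.076 (0.861). For Wnt1 (17832113), the founding member of the family, 7.34, 7.37 and 7.37 stood against 7.13 on all 3, and the change was 0.06 ± 0.072 (0.617). None of these 3 ligands moved against the other genes by more than its SE. Wnt4 (17803174) read 8.57 on all control arrays and 8.40, 8.42 and 8.36 with Ncoa3 shRNA, a change of 0.10 ± 0.057 (0.297). Wnt2 (17789851) read 7.96 on all control arrays and 7.77, 7.77 and 7.86 with Ncoa3 shRNA, with a change of 0.12 ± 0.056 (0.180). Wnt8b (17625878), a ligand of the embryonic cortical hem, read 7.48 on all control arrays and 7.26, 7.26 and 7.41, with a change of 0.12 ± 0.061 (0.231). For all 3 the group order turned with the scaling. Wnt2b (17750192), also of the cortical hem, read 6.83, 6.69 and 6.83 against 6.36, 6.42 and 6.44, with a change of -0.09 ± 0.065 (0.383). The remaining ligands, Wnt6, Wnt7a, Wnt9a and Wnt16, passed with none of the quantile-normalized fit, the block or the deposited values, with changes from -0.08 for Wnt7a to 0.14 for Wnt6. Wnt6 (17860518) read 8.62 on all control arrays and 8.38, 8.58 and 8.49 with Ncoa3 shRNA, so its order, too, turned with the scaling. Wnt9a (17646314) read 7.47, 7.42 and 7.19 against 7.33, 7.37 and 6.87, with overlap.

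The Frizzled receptors had the member with the largest change. Of 9 receptors, 2 rose (10.5% of all genes), 1 fell (9.04%) and 6 did not pass. Their median change was 0.16, and that over all genes 0.01. With the block 5 were higher (20.8% of all genes) and 1 lower (18.6%). Among them Fzd5, Fzd6 and Fzd10 had 1 deposited value per group. Fzd6 (17829071), a receptor of the planar polarity route, read 6.22 on all 3 control arrays and 6.78 on all 3 Ncoa3 shRNA arrays, so the groups were 0.56 apart and no array departed from its group. The measured difference relative to other genes was 0.84 ± 0.070 (SE, n = 3 per group; adjusted p = 0.00137, and 0.00317 with the block). By experiment it was 0.86, 0.84 and 0.83. On the control arrays Fzd6 stood below the 6.46 of the olfactory range, and on the Ncoa3 shRNA arrays above it. With the newer olfactory symbols added, the mean of Fzd6 over all arrays was not above that range.

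Fzd8 and Fzd10 both bind Wnts of the beta-catenin route and moved in opposite directions. Fzd8 (17716283) read 8.038, 8.038 and 7.9999 on the control arrays and 8.17, 8.37 and 8.08 on the Ncoa3 shRNA arrays, each Ncoa3 shRNA array above every control array. Its change was 0.46 ± 0.096 (SE; adjusted p = 0.0228), and as deposited 0.18 (0.130). Fzd10 (17880267) read 7.97 on all control arrays and 7.32 on all Ncoa3 shRNA arrays, and its change was -0.37 ± 0.064 (SE; adjusted p = 0.0130). The difference Fzd8 minus Fzd10 within an array was 0.06 ± 0.022 on control arrays and 0.89 ± 0.146 with Ncoa3 shRNA (SD, n = 3 each). Fzd10 had 1 deposited value per group, so these SDs are those of Fzd8 alone. This pair, too, was set side by side after its values were seen.

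**Figure D3:**
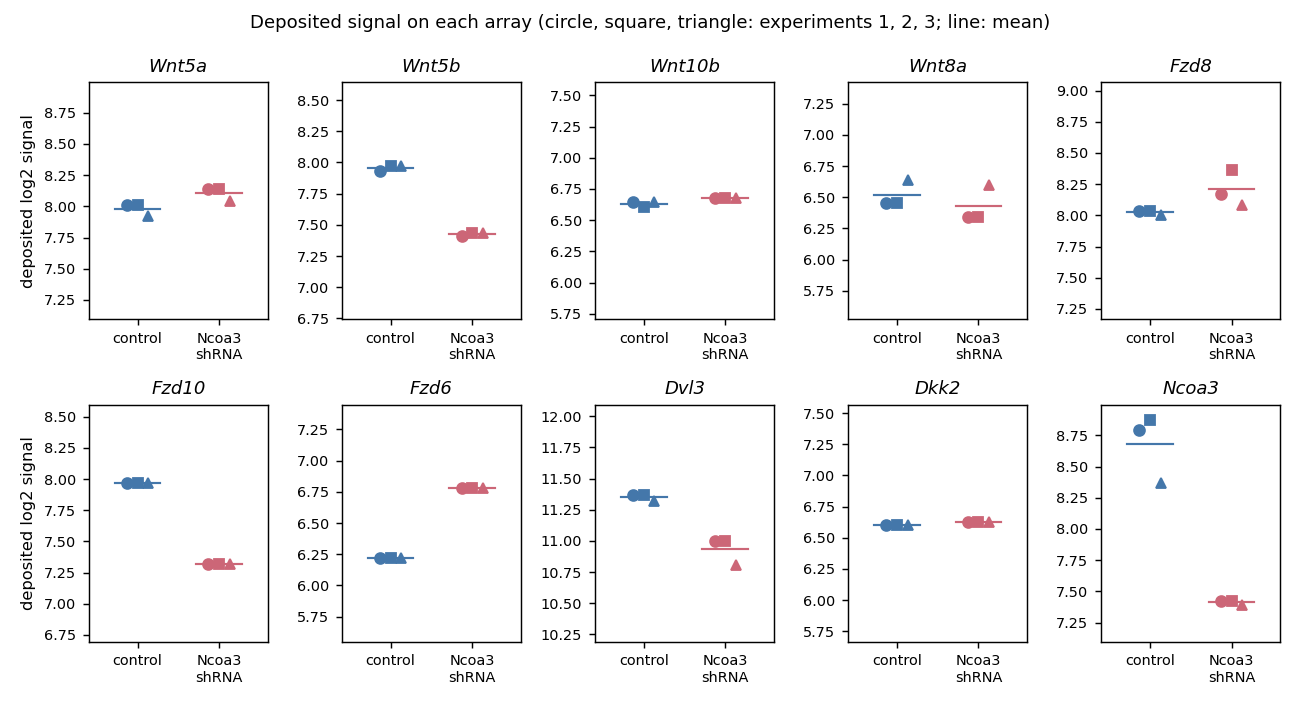
Deposited log2 signal on each of the 6 arrays for the 9 members past the test and for Ncoa3. Every panel spans 1.9 log2 units. Symbols mark the experiments and lines the group means. Fzd6, Fzd10 and Dkk2 have 1 value per group, and in the Wnt8a panel the groups overlap.

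Relative to other genes Fzd2, Fzd5 and Fzd9 did not pass without the block and passed with it. Fzd5 (17865066) read 7.77 on all control arrays and 7.65 on all Ncoa3 shRNA arrays, a change of 0.16 ± 0.063 (SE; adjusted p = 0.130, and 0.0161 with the block). Fzd2 (17651549) read 7.52 on all control arrays and 7.37, 7.39 and 7.45 with Ncoa3 shRNA, a change of 0.17 ± 0.062 (0.107, and 0.0236 with the block). Fzd9 (17673002), the Frizzled probe set with the highest signal, read 8.51, 8.51 and 8.48 against 8.46, 8.44 and 8.31, a change of 0.18 ± 0.066 (0.120, and 0.0319 with the block). All 3 stood lower with Ncoa3 shRNA as deposited, by 0.12, 0.11 and 0.10. Fzd5 and Fzd2 passed in that direction (adjusted p = 4.02e-05 and 0.0143), opposite to the fit with the block, and Fzd9 did not (0.133). Fzd7 (17859595) read 7.45 on all control arrays and 7.01, 7.01 and 7.27 with Ncoa3 shRNA. Its change was -0.06 ± 0.069 (0.574), and it passed as deposited (-0.35, adjusted p = 0.0226) and, among the quantile-normalized fits, without experiment 3 (-0.15, adjusted p = 0.00583). Fzd1 and Fzd4, with changes of -0.03 and 0.12, did not pass with or without the block or as deposited. Without experiment 3 Fzd4 passed (0.19, adjusted p = 0.0150) and Fzd1 did not (0.807). Fzd1 (17781276) read 8.49, 8.64 and 8.24 against 8.24, 8.40 and 7.84, and Fzd4 (17618146) 8.18, 8.22 and 8.48 against 8.12, 8.12 and 8.17. As deposited the groups overlapped for Fzd1 and not for Fzd4, which was lower with Ncoa3 shRNA. After quantile normalization they overlapped for both.

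Neither co-receptor passed relative to other genes. Lrp6 (17795822) read 9.57, 9.67 and 9.35 with control shRNA and 9.13, 9.13 and 9.11 with Ncoa3 shRNA, lower on every array as deposited (-0.40, adjusted p = 0.0187). Its change relative to other genes was -0.13 ± 0.077 (SE; 0.304). Lrp5 (17639006) read 8.37, 8.37 and 8.28 against 8.43, 8.26 and 8.09, so the groups overlapped, with a change of 0.19 ± 0.098 (0.228).

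Of the Dishevelled genes, which pass the signal from Frizzled into the cell, Dvl3 fell. Dvl3 (17670495) read 11.37, 11.37 and 11.32 with control shRNA and 10.997, 10.997 and 10.80 with Ncoa3 shRNA, with no overlap. The change was -0.23 ± 0.052 (SE; adjusted p = 0.0305, and 0.0290 with the block). With each array centred on its median it was -0.14 (0.141), and 0.0535 was its adjusted p when only genes above the olfactory range were tested. Dvl1 (17805044) read 9.49, 9.49 and 9.39 against 9.29, 9.30 and 9.26, and Dvl2 (17647653) read 8.20, 8.20 and 8.04 against 7.78, 7.97 and 7.78. Both were lower as deposited, by 0.17 and 0.30 (adjusted p = 0.0183 and 0.0315), with changes relative to other genes of 0.10 ± 0.057 and -0.02 ± 0.101 (SE; 0.297 and 0.911).

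All 4 Sfrp antagonists were lower past the threshold as deposited, where 43.3% of all genes were. Each had 1 deposited value on all 3 Ncoa3 shRNA arrays, and Sfrp4 had 1 on all control arrays too. In limma's fit relative to other genes 0 passed, and with the block Sfrp2 passed as higher. Sfrp1 (17712432) read 8.19, 8.30 and 8.43 with control shRNA and 7.88 on all 3 Ncoa3 shRNA arrays, and Sfrp5 (17625743) read 8.11, 8.11 and 8.38 against 7.67 on all 3. Their changes were -0.16 ± 0.077 and -0.26 ± 0.090 (SE; adjusted p = 0.217 and 0.0964), and in both the gap was widest in experiment 3, at -0.31 and -0.49. Sfrp2 (17739411), the Sfrp probe set with the highest signal, read 8.48, 8.48 and 8.45 against 8.36 on all 3, and its change was 0.17 ± 0.057 (0.0977, and 0.0300 with the block). Sfrp4 (17719660) read 7.77 on all control arrays and 7.56 on all Ncoa3 shRNA arrays, and its change was 0.09 ± 0.064 (0.407).

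Among the Dkk genes Dkk2, which can block or stimulate Lrp6 depending on the cell, was the only one past the test. Dkk2 (17742689) read 6.60 on all control arrays and 6.63 on all Ncoa3 shRNA arrays. The deposited gap was only 0.02, and the change relative to other genes was 0.31 ± 0.074 (SE; adjusted p = 0.0339, 0.00389 with the block, and 0.0535 when only genes above the olfactory range were tested). Dkk3 (17636325), the Dkk probe set with the highest signal and a protein that does not act as a typical Lrp inhibitor, read 9.80, 9.70 and 9.41 against 9.42, 9.25 and 9.25, with a change of -0.07 ± 0.095 (0.658). Dkk1 (17641532), an inhibitor of Lrp6 that is itself a target of beta-catenin, read 6.72, 6.72 and 6.86 against 6.48, 6.48 and 6.62. Its change was 0.04 ± 0.044 (0.581). Dkk4 (17712533) read 7.03 on all control arrays and 6.70 on all Ncoa3 shRNA arrays, with a change of -0.06 ± 0.076 (0.654).

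The other genes of the pathway changed less often than all genes by count: of 68 measured, 3 rose and 2 fell (7.35%), and that difference was not tested. With the block 9 were higher and 7 lower (23.5%, against 39.3% of all genes). Rspo4, a secreted enhancer of Wnt signals, rose by 0.26 (adjusted p = 0.0174), Gsk3a, a kinase of the destruction complex, by 0.19 (0.0272), and the nuclear factor gene Tcf7l2 by 0.30 (0.0405). Tcf7, another nuclear partner of beta-catenin, fell by 0.33 on the log2 scale (0.0243), and Csnk1a1, the kinase that primes beta-catenin, with a change of -0.21 (0.0418). With median-centred arrays Tcf7 (adjusted p = 0.0862), Csnk1a1 (0.125) and Rspo4 (0.158) did not pass. As deposited Rspo4 stood at -0.02, and Tcf7l2 had a single value per group. None of these 5 calls held in limma's fit without experiment 1 or 2, or without any single array of them.

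Beta-catenin itself, Ctnnb1, read 12.12, 12.23 and 11.79 with control shRNA and 11.74, 11.74 and 11.45 with Ncoa3 shRNA. Its change was -0.27 ± 0.122 (SE; adjusted p = 0.179, and 0.0243 with the block). With median-centred arrays it was -0.12 (0.471). Axin2, a target gene often used as a readout of beta-catenin signalling, read 8.32, 8.32 and 8.09 against 8.38, 8.38 and 8.14. In each experiment the Ncoa3 shRNA array was slightly above its control. The change of Axin2 was 0.33 ± 0.112 relative to other genes (0.0956, and 0.00642 with the block) and 0.05 as deposited (0.708). With median-centred arrays Axin2 passed (0.33, adjusted p = 0.0342). Lef1, the scaffold gene Apc and Gsk3b did not pass, with or without the block. Their differences were 0.28 ± 0.191 (0.366), -0.38 ± 0.141 (0.121) and -0.07 ± 0.055 (0.453), and that of Gsk3b turned to 0.11 with median-centred arrays. Of the 8 other target genes listed, 0 passed with or without the block in limma's fit, with changes from -0.27 for Ccnd1 to 0.20 for Myc.

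Marker lists of other cell types were measured beside these changes. Of 75 markers 9 rose and 4 fell (17.3%). Microglial markers had a mean of 6.26 to 6.33 on control arrays and 6.41 to 6.61 on Ncoa3 shRNA arrays, with 2 of 8 risen (Cx3cr1 and Aif1), and fibroblast and meningeal markers 7.65 to 7.81 and 7.88 to 8.01, with 2 of 8 risen (Fn1 and Dcn). The other fibroblast markers did not pass, and 3 of the 8 stood below 0, down to -0.21 for Col1a1, which was lower with the block. Of the microglial markers Aif1, Itgam and P2ry12 stayed below 6.46, the limit of the olfactory range, on all 6 arrays. None of these marker calls held without experiment 1 or 2. The mean of the 6 GABA neuron markers lay at 10.51 to 10.58 and 10.59 to 10.61, with Slc32a1 risen (0.50) and Gad2 fallen (-0.42). Of the oligodendrocyte lineage Pdgfra rose (0.32), and Sox10 (-0.47) and Mog (-0.26) fell. The means of the general neuronal markers overlapped (12.38 to 12.48 and 12.37 to 12.46). Those of the 7 astrocyte markers did as well (9.44 to 9.82 and 9.37 to 9.90), with 1 risen. For 8 markers of radial glia and progenitors they also overlapped (7.86 to 8.01 and 7.97 to 8.17). Of these 8, 2 rose, and 7 stood above 0 and 1 below. Of 6 markers of endothelial cells and pericytes 1 fell. The part of these cells in the changes of Fzd6, Wnt5a and the other members was not tested.

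Members also differed between the 3 experiments. In limma's F test for any difference among experiments, with the shRNA group as the other term, 8 members passed (19.5%, against 18.8% of all genes). They were Wnt7a, Wnt9a, Fzd1, Wnt10a, Wnt9b, Fzd6, Dkk4 and Dkk2. Of these, Wnt10a, Fzd6, Dkk4 and Dkk2 had 1 deposited value per group, so that their differences between experiments arose in the normalization, and Wnt9b varied by less than 0.01 as deposited. The 8 adjusted p-values lay between 0.0370 and 0.0485, and with any array or experiment left out 0 to 3 members passed. In the deposited values only Dkk1 passed (0.0447; 1.91% of all genes), and with quantile normalization over the named genes alone no member did (3.79% of all genes).

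Wnt7a, a ligand that promotes synapse formation, had the widest range. It read 9.55 and 9.14 in experiment 1 (control and Ncoa3 shRNA), 9.29 and 9.05 in experiment 2 and 8.59 and 8.16 in experiment 3. Both arrays of experiment 3 lay below all others. After quantile normalization the experiment means were 9.31, 9.15 and 8.37 (adjusted p = 0.0370, 0.0181 with median-centred arrays, where 13.4% of all genes passed, 0.0599 as deposited and 0.0512 with quantile normalization over the named genes alone). The difference between shRNA groups was -0.08 ± 0.337 (SE; 0.899). With the block its SE was 0.064 (adjusted p = 0.367). Fzd1, a Frizzled receptor at synapses, had means of 8.36, 8.52 and 8.005 (0.0484, and 0.102 as deposited), and Wnt9a 7.44, 7.44 and 6.92 (0.0484, and 0.180 as deposited). All 3 were lowest in experiment 3. Frzb, a secreted Wnt binder outside the member rule, was lowest in experiment 1, with means of 8.71, 9.40 and 9.07 (0.0314). Astrocyte markers moved with the experiments as well: 6 of 7 passed, and their mean in experiments 1 to 3 was 9.44, 9.56 and 9.82 on the control arrays and 9.37, 9.54 and 9.90 on the Ncoa3 shRNA arrays. Their part in the lower Wnt7a was not tested.

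**Figure D4:**
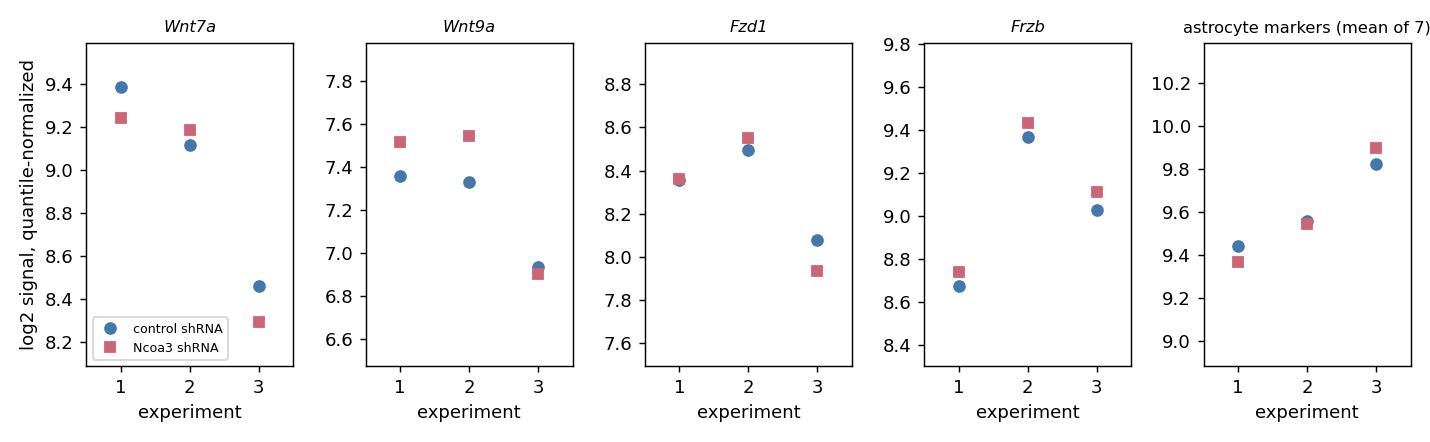
Quantile-normalized log2 signal by experiment for Wnt7a, Wnt9a, Fzd1, Frzb and the mean of 7 astrocyte markers, circles for control and squares for Ncoa3 shRNA. Each panel spans 1.5 log2 units. Wnt7a is lowest and the astrocyte mean highest on both arrays of experiment 3.

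The members' promoters were read from RefSeq (assembly GRCr8), the 250 bases before the start of the gene. The table held 29 of the 41 members. They were rich in G and C, with a median of 68.0% against 51.2% over 33469 promoters. Each member counted once, whereas those promoters were not limited to 1 per gene or to the genes measured here. The shares of all promoters below have the same limit. Ncoa3 works through nuclear receptors and also with AP-1, so the nuclear receptor half-site AGGTCA, the AP-1 site TGANTCA and the TCF core CTTTGA were searched on both strands. AGGTCA was in 1 of 29 members (Wnt16; 14.1% of all promoters), TGANTCA in 1 (Wnt16; 6.34%) and CTTTGA in 3 (Wnt8a, Fzd7 and Dkk1; 13.9%). Wnt5a and Fzd10 are printed as members that rose and fell and hold none of the letters, and Wnt16 and Dkk1 as members that hold them, with the matches in capitals. Wnt16 (17781822) read 7.12, 7.12 and 7.25 with control shRNA and 6.98, 6.78 and 7.02 with Ncoa3 shRNA, a change of 0.04 ± 0.067 (SE; adjusted p = 0.722). A match describes letters and not binding.
Wnt5a promoter, chr16:3703415-3703664, + strand: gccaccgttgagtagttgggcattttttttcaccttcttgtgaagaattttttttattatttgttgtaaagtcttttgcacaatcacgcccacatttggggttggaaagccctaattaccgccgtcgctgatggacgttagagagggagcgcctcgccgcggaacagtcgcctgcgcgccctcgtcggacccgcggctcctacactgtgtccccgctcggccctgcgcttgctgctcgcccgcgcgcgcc
Fzd10 promoter, chr12:33737560-33737809, - strand: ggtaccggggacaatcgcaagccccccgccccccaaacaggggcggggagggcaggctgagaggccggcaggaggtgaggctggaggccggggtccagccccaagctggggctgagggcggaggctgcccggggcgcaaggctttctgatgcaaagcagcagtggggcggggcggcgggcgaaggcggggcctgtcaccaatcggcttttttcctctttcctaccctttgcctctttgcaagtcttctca
Wnt16 promoter, chr4:51786478-51786727, + strand: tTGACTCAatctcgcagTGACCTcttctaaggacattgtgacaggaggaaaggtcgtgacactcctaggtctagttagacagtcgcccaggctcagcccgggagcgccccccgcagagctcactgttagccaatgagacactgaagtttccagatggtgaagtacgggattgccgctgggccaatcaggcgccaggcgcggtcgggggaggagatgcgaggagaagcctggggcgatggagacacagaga
Dkk1 promoter, chr1:237798651-237798900, - strand: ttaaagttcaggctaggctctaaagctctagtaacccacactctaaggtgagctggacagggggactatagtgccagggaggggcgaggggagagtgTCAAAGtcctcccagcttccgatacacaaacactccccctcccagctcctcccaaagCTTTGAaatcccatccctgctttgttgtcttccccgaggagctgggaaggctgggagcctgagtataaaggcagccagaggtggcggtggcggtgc

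Some Wnt genes sit next to each other in the genome. In RefSeq 4 pairs of members were direct neighbours among protein-coding genes: Wnt3a and Wnt9a, Wnt9b and Wnt3, Wnt10b and Wnt1, and Wnt6 and Wnt10a. Their changes were -0.24 and 0.11, 0.25 and -0.06, 0.34 and 0.06, and 0.14 and 0.02 in that order. Wnt10b rose while its neighbour Wnt1 did not pass, and in the other pairs neither passed. The differences within pairs were not tested.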

How the data were processed

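RNA of 6 samples was hybridised to 1 single-colour Affymetrix array each. The authors deposited 1 log2 signal per probe set and array. The submitters' processing notes name Affymetrix Expression Console as the tool. Its version, how it summarised and normalized the probes, and the genome build were not given in the sources used here. Of 36685 probe sets 18511 had 1 symbol in the platform's annotation, which can be old; the brightest by mean signal was kept per gene (18166 genes). The number of arrays limits the precision. The labels call the samples separate experiments, and p-values measure the spread between these 6 arrays. Where a deposited value repeats on all arrays of a group, the spread in that group comes from the normalization alone.

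All probe sets were quantile-normalized over the 6 arrays, and each gene was fitted in limma (version 3.58.1, under R version 4.3.3; lmFit, eBayes with a trend, two-sided, Benjamini-Hochberg adjustment, threshold 0.05) without a block. This step also takes away a real change that most genes share. Experiments were compared by a moderated F test in an additive model with the shRNA group. The scripts were tested on simulated data. Experiment numbers pair the arrays, per the labels; deviations from group means of the deposited values correlated at 0.75, 0.56 and 0.80 within experiments 1 to 3, and at -0.76 to 0.54 between experiments. Alternatives were deposited or median-centred values, the block, no trend, dim genes left out, averaged probe sets, and each array or experiment left out of the fit. The members, lists and settings were chosen with earlier results of these data known. Members given in full were those past the test, past the fit with the block or with deposited values, and the brightest of each role; pathway genes named were those past the test and 6 fixed ones.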

Additional observations from a re-analysis of the deposited data

How the results depend on the processing

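The count of 9 changed members was 28 with deposited values, 32 with deposited values and the block, 16 with the block, 5 when only genes above the olfactory range were tested, 1 with a 1.5-fold minimum, and 5 among members whose values varied in both groups (the last alternative, the newer olfactory symbols and the normalization over named genes alone were chosen after seeing the data). With 1 array or experiment left out it ranged from 0 to 26. The count of 5 other pathway genes was 24, 39, 16 and 3 in the first 4 of these settings, and 0 to 26 with parts left out. That of 13 markers was 38, 44, 28 and 4, and 0 to 34. The count of 8 members that differed between experiments was 1 with deposited values, 3 with median-centred arrays, 1 without a trend, 0 with normalization over the named genes alone (lowest adjusted p = 0.0512) and 0 to 3 with arrays or experiments left out. The change of Ncoa3 ran from -1.13 to -0.87 with parts left out. The members' median was -0.20 as deposited, 0.075 with median-centred arrays and 0.036 to 0.11 with parts left out. The 41 members above the olfactory range became 19 at the 99th percentile.

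With deposited values, with or without the block, the sign turned for Wnt6 (-0.13), Wnt4 (-0.18), Wnt2 (-0.16), Wnt8b (-0.17), Wnt9a (-0.17), Wnt1 (-0.23), Wnt11 (-0.14), Wnt10a (-0.26), Wnt16 (-0.24), Wnt9b (-0.032), Wnt8a (-0.086), Fzd9 (-0.10), Fzd4 (-0.16), Fzd5 (-0.12), Fzd2 (-0.11), Lrp5 (-0.082), Dvl1 (-0.17), Sfrp2 (-0.11), Sfrp4 (-0.20), Dkk1 (-0.24) and Rspo4 (-0.025). These settings keep the common offset of the groups. With median-centred arrays Gsk3b stood at 0.11. With parts left out the sign turned for Wnt7b (-0.13 to 0.0021), Wnt7a (-0.34 to 0.23), Dvl2 (-0.097 to 0.035), Fzd1 (-0.16 to 0.15), Wnt9a (-0.022 to 0.32), Wnt10a (-0.029 to 0.076), Wnt16 (-0.011 to 0.099) and Gsk3b (-0.11 to 0.0018). Of the 9 called members, 8 kept their direction in every alternative and 0 kept the call in all. The cause of the losses without experiment 1 or 2 was not tested.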

Other observations

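A second probe set of Lrp5, which the annotation shares with Tvp23b and which was left out for that reason, read 6.72, 6.72 and 6.62 on the control arrays and 6.68 on all 3 Ncoa3 shRNA arrays. After quantile normalization it differed by 0.27 (Ncoa3 shRNA minus control), against 0.19 for the probe set of Lrp5 alone.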
